A study of Mus musculus with 4 samples.

Results

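The 36 genes described here encode the Toll-like receptors of the mouse, their co-receptors, adaptors and kinases, the NOD sensors, the core inflammasome proteins and the NF-κB family with its inhibitor IκBα. They were listed by their place in the pathway out of 21938 protein-coding genes, with earlier results of these data known, and all 36 were found in the annotation. Every deposited row inside a gene or within 10000 bp of it was assigned to that gene. DNA methylation had been measured by whole-genome bisulfite sequencing, in which unmethylated cytosines are converted and methylated ones are not. The cells were microglia, the resident macrophages of the brain, purified by flow cytometry from untreated C57BL/6J mice that were 3 months old. One group was WT and the other was IRF8KO, which lacks the myeloid transcription factor IRF8, with 2 samples in each. The labels do not give the deleted allele, the sex of the mice, or whether the 2 samples of a group came from separate animals.

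Toll-like receptors bind microbial products at the cell surface or nucleic acids inside endosomes. They pass the signal through adaptors such as MyD88 and TRIF to IRAK kinases and the ubiquitin ligase TRAF6, which lead to release of NF-κB from IκBα and to transcription of inflammatory genes. NOD1 and NOD2 sense fragments of bacterial cell wall in the cytosol, and inflammasomes are cytosolic complexes that activate caspase-1, which processes interleukin-1β. Microglia use these receptors to sense infection, debris and protein aggregates. Methylation of CpG dinucleotides at promoters and enhancers generally accompanies low activity of those elements in a cell type.

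Each deposited table is a comparison made by the authors, with no value per sample, so values cannot be given sample by sample or set against the spread between samples. The groups appear in the headers by number only. A difference is therefore the first minus the second group on a scale of 0 to 1, no genotype was assigned to either, and no level per group is given because no header ties the level columns to a genotype. One table lists single positions with a posterior probability of at least 0.95, each with a standard error (SE) and a false discovery rate (FDR). The other lists regions, each with its number of cytosines, its difference, and a signed area score. The read depth behind each value is unknown.

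Reference sequence is shown for 5 of the regions at these genes to let the layout of their CpGs be seen beside the values given later. They lie upstream of Tlr2, at the start of Tlr8, in coding sequence of Tlr9, in an intron of Nod1 and beyond the end of Nfkbia. All are the plus strand of GRCm38 with CpGs in capitals. For Tlr2 and Nfkbia the central 300 bases of the region are shown, and for Tlr8 those of the central 300 that lie outside the untranslated exon.
Tlr2 (chr3:83844815-83845114): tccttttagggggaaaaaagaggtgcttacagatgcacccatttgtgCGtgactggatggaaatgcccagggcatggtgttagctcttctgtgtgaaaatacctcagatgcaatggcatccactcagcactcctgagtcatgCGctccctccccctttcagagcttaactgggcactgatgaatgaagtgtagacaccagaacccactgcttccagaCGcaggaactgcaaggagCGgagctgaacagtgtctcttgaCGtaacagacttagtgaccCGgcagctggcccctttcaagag
Tlr8 (chrX:167263891-167264082): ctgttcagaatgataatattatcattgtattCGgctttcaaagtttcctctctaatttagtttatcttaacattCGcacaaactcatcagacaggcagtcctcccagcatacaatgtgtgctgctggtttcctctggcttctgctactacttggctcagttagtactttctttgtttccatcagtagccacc
Tlr9 (chr9:106223684-106223760): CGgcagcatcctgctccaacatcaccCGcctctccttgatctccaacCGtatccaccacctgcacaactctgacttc
Nod1 (chr6:54946360-54946594): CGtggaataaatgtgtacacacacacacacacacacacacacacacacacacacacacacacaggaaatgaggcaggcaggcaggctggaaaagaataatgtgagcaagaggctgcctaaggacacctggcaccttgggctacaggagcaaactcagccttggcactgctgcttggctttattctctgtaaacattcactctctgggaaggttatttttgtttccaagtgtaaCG
Nfkbia (chr12:55487203-55487502): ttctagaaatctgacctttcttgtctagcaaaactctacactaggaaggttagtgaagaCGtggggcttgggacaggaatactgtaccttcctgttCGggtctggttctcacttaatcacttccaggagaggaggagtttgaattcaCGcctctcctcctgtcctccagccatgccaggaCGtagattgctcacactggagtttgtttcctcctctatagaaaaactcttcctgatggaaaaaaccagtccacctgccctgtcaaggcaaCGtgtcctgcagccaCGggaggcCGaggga

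Regions were found at 9 of the 36 genes, which is 25%, against 9.19% of all protein-coding genes in the authors' deposited table. These genes were Tlr2, Tlr8, Tlr9, Tirap, Irak3, Traf6, Nod1, Nfkb1 and Nfkbia. Higher regions in the first group stood at 6 genes (16.7%), against 5.17% of all genes, and at 3 genes (8.33%) they were lower, against 4.69%. No gene had regions in both directions, but only Tlr8 and Traf6 had more than 1 region. The 9 genes held 11 regions, 8 higher and 3 lower in the first group. The higher share was 72.7%, beside 53.3% of all 3389 regions. No region overlapped the body of another protein-coding gene. These counts are described beside their background and were not tested.

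In size and length the regions were near the medians of the whole list. Their absolute difference had a median of 0.382 and ran from 0.327 to 0.592, against a median of 0.405 over all regions in the authors' deposited table. The median length was 237 bp against 199 bp, and the median number of cytosines was 9 in both. A position at FDR under 0.05 lay in 8 of the 11, and in 77.9% of all regions.

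Listed positions reached further than regions. The authors' deposited table had 25 genes (69.4%) with at least 1 listed position, against 64.1% of all genes, so this count was near its background. A position at FDR under 0.05 was present at 18 genes (50.0%), against 30.8%. Such positions were higher in the first group at 13 genes (36.1%), against 20.5%, and lower at 5 genes (13.9%), against 16.4%. Each of the 18 genes had its positions at this FDR in 1 direction. The 5 genes with lower positions were Tlr3, Irak2, Nod2, Nfkb1 and Nfkbia.

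**Figure D1:**
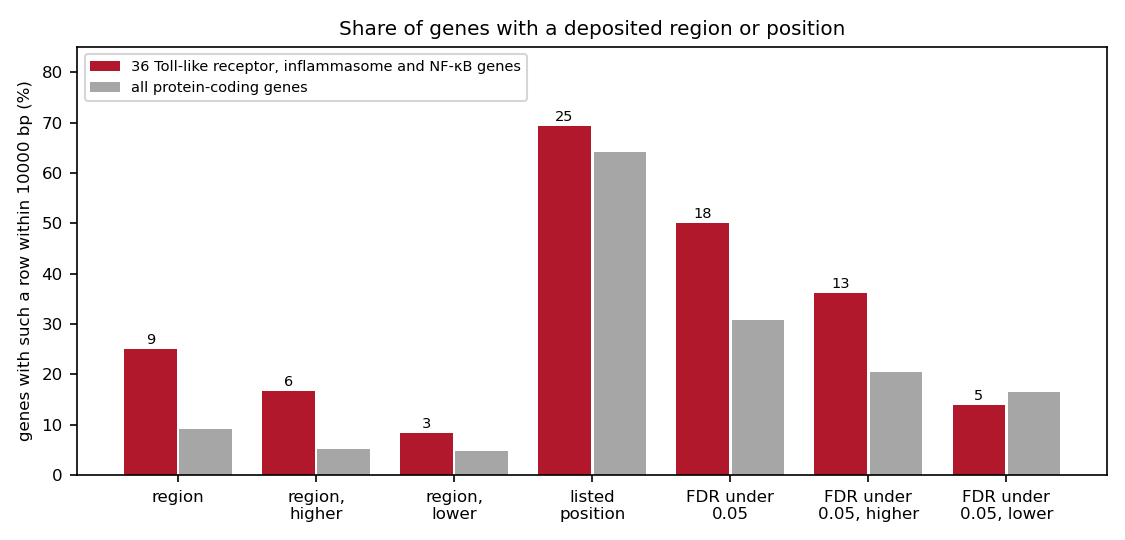
Bars give the percentage of genes with a deposited region, listed position or position at FDR under 0.05 within 10000 bp, for the 36 genes in red with their counts above and for all 21938 protein-coding genes in grey. The red bar is above the grey one for regions (25% against 9.19%) and for higher positions at FDR under 0.05 (36.1% against 20.5%), and below it for lower ones (13.9% against 16.4%).

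The 36 genes had 401 listed positions, 243 of them higher and 158 lower in the first group. The higher share was 60.6%, beside 61.9% of all 269406 listed positions, so it was near its background. Of the 401 positions, 70 were cytosines or guanines outside a reference CpG. The others lay on 187 CpGs of the reference, since both strands of a CpG can be listed. Adjacent listed positions, 1 bp apart, formed 157 pairs, and 152 pairs had the same difference in the authors' deposited table, so neighbouring positions are not separate measurements and a uniform run of values is no finding about a locus. At FDR under 0.05 there were 58 positions (14.5%), against 18.7% of all 269406 listed positions in the authors' deposited table. Of the 58, 39 were higher and 19 lower, a higher share of 67.2% beside 58.1% of all such positions. Regions held 32 of the 58, and 26 lay outside any region. A dispersion is deposited for each position and group. Of the 58, 22 positions at 13 genes had a dispersion of their own in each group. The others carried the most common value of the list in at least 1 group. They include the positions with the smallest FDR at Tlr4, Nod1, Tlr3 and Ticam2. Of the 58, 24 (41.4%) were outside a reference CpG, against 27.7% of all positions at this FDR. These 24 include the smallest FDR at Tlr8, Tirap, Irak3, Nod2 and Nfkbia. Both positions at this FDR inside the Nfkb1 region are also among them.

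**Figure D2:**
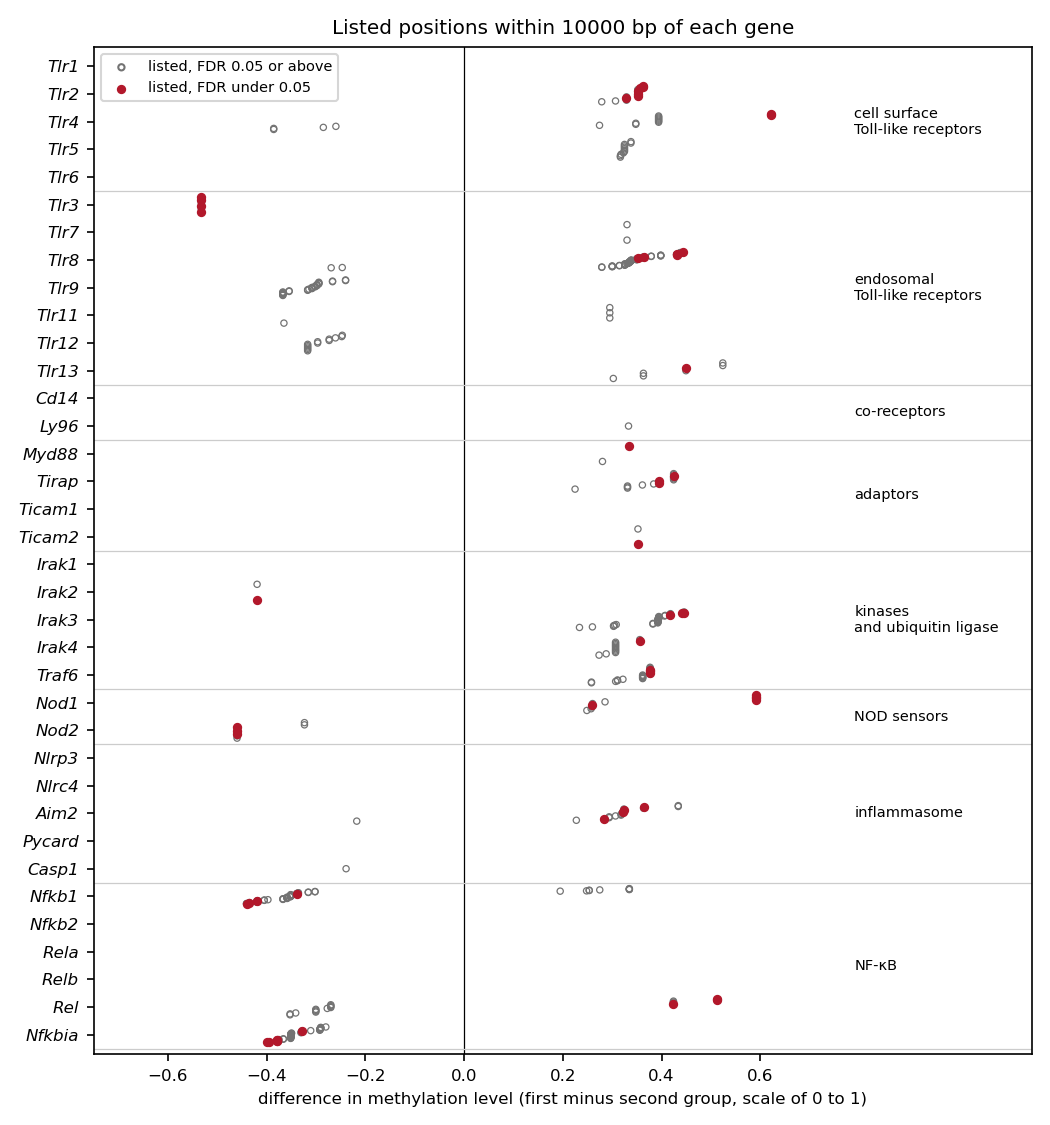
Each point is a listed position within 10000 bp of the gene named on the vertical axis, placed by its difference in methylation level on the horizontal axis, with positions at FDR under 0.05 in red and the genes grouped by role. Points of adaptors lie to the right of 0 (20 higher, 0 lower), most NF-κB points lie to the left (15 higher, 92 lower), and 11 genes have no point. Neighbouring points are not separate measurements. Of the 20 adaptor points 16 belong to Tirap, and all NF-κB points belong to Nfkbia, Nfkb1 and Rel.

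Among the 5 cell surface receptors, 3 had listed positions, 2 had positions at FDR under 0.05 and 1 had a region. That region belonged to Tlr2, which encodes the receptor for bacterial lipopeptides. It lay 3041 bp upstream of the gene at chr3:83844808-83845121, and its 19 cytosines had a difference of 0.345 and an area score of 69.5 in the authors' deposited table. All 19 positions were higher in the first group, between 0.307 and 0.363, and 7 of them passed an FDR of 0.05, the smallest being 0.0274. The single further listed position of Tlr2, outside the region, was also higher, at 0.279.

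Tlr4, the receptor for lipopolysaccharide, had no region but the largest single difference of the 36 genes. Both strands of 1 intronic CpG, at chr4:66857263-66857264, differed by 0.622 in the authors' deposited table. The SE was 0.0551 on the first of these positions and 0.133 on the other, with FDR values of 6.87e-24 and 0.00522. Only the second of these positions had a dispersion of its own in each group. Its other 14 listed positions, 10 higher and 4 lower, did not pass an FDR of 0.05. Tlr5, the flagellin receptor, had 12 listed positions, all between 0.317 and 0.338 and none at FDR under 0.05. Tlr1 and Tlr6, the partners of Tlr2, had no listed position among an estimated 741 and 720 tested.

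All 7 endosomal receptors had listed positions. Tlr8, which encodes a receptor for RNA and lies on the X chromosome, had the most of all 36 genes, 61 positions, with 59 higher in the first group. Its region at chrX:167263777-167264087 ran across an annotated start site and covered untranslated exon and intron. The 9 cytosines there had a difference of 0.416 in the authors' deposited table, ranging from 0.350 to 0.444, and 3 passed an FDR of 0.05. A second region, chrX:167268326-167268403, lay 3997 bp upstream with a difference of 0.382, and none of its positions passed this FDR, the smallest being 0.0650. Listed positions made up 9.39% of the tested positions around Tlr8, the highest share of the 36 genes.

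Tlr9, the receptor for unmethylated CpG DNA, went the other way. Its region lay in coding sequence at chr9:106223684-106223760, with 9 cytosines and a difference of -0.352 in the authors' deposited table. All 28 listed positions around Tlr9 were lower in the first group, from -0.367 to -0.240, and none passed an FDR of 0.05, the smallest being 0.0797. Tlr9 was the only gene of the 36 with a region and no position at that FDR. Tlr12, a receptor for profilin of parasites, was similar in direction, with 13 listed positions from -0.317 to -0.247. None passed an FDR of 0.05, the smallest being 0.651. These positions formed 1 cluster, with 8 of them outside a reference CpG and the others on 3 CpGs.

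Tlr3, the receptor for double-stranded RNA, had 6 listed positions on 3 CpGs of an intron and all had the same difference of -0.532 in the authors' deposited table. Of these, 4 passed an FDR of 0.05, the smallest being 2.3e-05, and no region was listed there. Tlr13, which binds bacterial ribosomal RNA, had 7 higher positions, and the 1 at FDR under 0.05 lay 8375 bp upstream with a difference of 0.449. Tlr7, an RNA receptor next to Tlr8, had 2 listed positions at 0.330, neither at FDR under 0.05. Tlr11, the partner of Tlr12, had 3 higher positions in coding sequence and 1 lower in an intron, none at FDR under 0.05.

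Close to start sites the listed positions of Tlr8 were higher in the first group and those of Tlr9 and Tlr12 lower. Within 1000 bp of an annotated start site there were 56 listed positions at 5 genes in the authors' deposited table. Tlr8 had 25, all higher in the first group between 0.338 and 0.444, and 5 passed an FDR of 0.05. Tlr9 had 16, all lower between -0.317 and -0.240, and Tlr12 had 13, all lower between -0.317 and -0.247, with none of either at this FDR. Tlr11 and Nod1 had 1 each, at -0.365 and 0.249. Neighbouring positions are not separate measurements, and the difference between these genes was not tested.

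**Figure D3:**
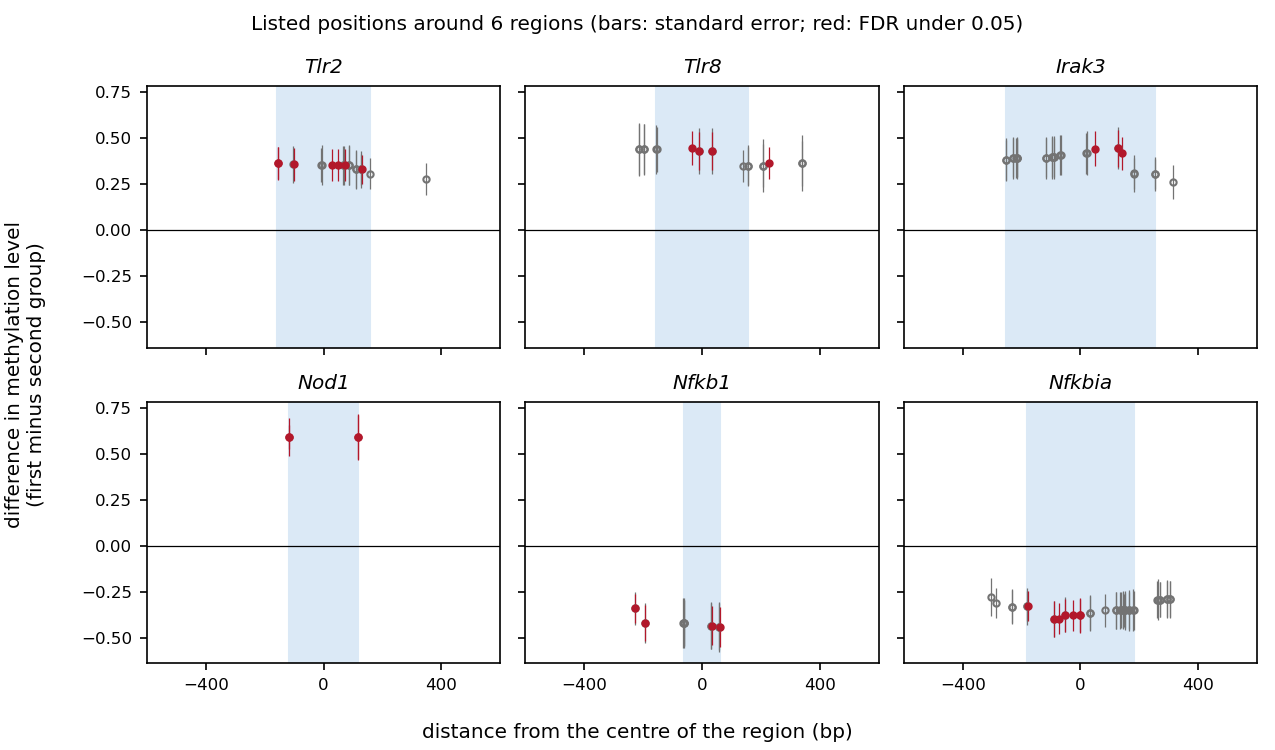
Each panel shows the listed positions on either side of the centre of 1 region (blue band), with the difference in methylation level on the vertical axis, its deposited standard error as a bar, and positions at FDR under 0.05 in red. Positions at Tlr2, Tlr8, Irak3 and Nod1 lie above 0 and those at Nfkb1 and Nfkbia below it. Nod1 has listed positions only at the ends of its band.

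The co-receptors and adaptors carried few rows. Cd14 had no listed position, and Ly96, which encodes the MD-2 partner of Tlr4, had 1, which did not pass an FDR of 0.05. Among the 4 adaptors, Tirap, Myd88 and Ticam2 had positions at FDR under 0.05, and Ticam1, the gene of TRIF, had no listed position. All 20 listed positions of the adaptors were higher in the first group. Of these, 16 belonged to Tirap in 2 clusters, and Myd88 and Ticam2 had 2 each.

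The region of Tirap, the adaptor that brings MyD88 to Tlr2 and Tlr4, lay 6664 bp beyond the gene at chr9:35177640-35177887. It held 10 cytosines with a difference of 0.415 in the authors' deposited table, and 3 positions passed an FDR of 0.05. The gene Dcps was nearer, at 1579 bp. At Myd88 the position at FDR under 0.05 (difference 0.334, FDR 0.00259) lay inside Slc22a14, and at Ticam2, the gene of TRAM, it (0.352, FDR 2.48e-06) lay inside Tmed7. Both positions were outside a reference CpG. Another gene was thus nearer at every position of these 3 adaptors that passed the threshold.

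Among the kinases and the ligase, Irak3 had the region with the second largest absolute area score of the 36 genes, after Nfkbia. Irak3 encodes IRAK-M, a member of the IRAK family that restrains the signal. Its region was intronic at chr10:120151618-120152125, with 25 cytosines, a difference of 0.392 and an area score of 92.4 in the authors' deposited table. All 25 positions were higher in the first group, from 0.303 to 0.445, and 3 passed an FDR of 0.05, the smallest being 0.00521. Only 1 of these 3 lay on a reference CpG, and the smallest did not. All 28 listed positions of Irak3 had the same direction.

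Traf6, which builds the ubiquitin chains that recruit the next kinases, had both of its regions in the 3′ untranslated part of the gene. Their differences were 0.327 at chr2:101697946-101698182 and 0.377 at chr2:101698241-101698348 in the authors' deposited table. The second held 3 positions at FDR under 0.05, each with an FDR of 0.0423 and each outside a reference CpG, and the first held none. All 23 listed positions of Traf6 were higher in the first group.

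The other kinases had single positions at FDR under 0.05 inside neighbouring genes. For Irak2 it lay 7375 bp upstream, within Vhl, with a difference of -0.419 and an FDR of 4.72e-09 in the authors' deposited table. The other strand of that CpG had the same difference and an FDR of 0.196. For Irak4, the first kinase to bind MyD88, the position lay 6012 bp beyond the gene, within Twf1. Its difference was 0.356 with an FDR of 0.00400, and the other strand had the same difference and an FDR of 0.664. Irak1 had no listed position among an estimated 463 tested.

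Both NOD sensors had positions at FDR under 0.05, in opposite directions. The Nod1 region, intronic at chr6:54946360-54946594, had a difference of 0.592 in the authors' deposited table, larger than that of 97.9% of all regions in absolute size. It rested on 4 positions, which are both strands of the CpGs at its ends, printed above in capitals on either side of a CA repeat. All 4 had the same difference and passed an FDR of 0.05, the smallest being 2.53e-14. That value belongs to a position without a dispersion of its own in each group. The other strand of its CpG, with its own dispersion, had 3.23e-05. One more intronic Nod1 position passed, at 0.259. Nod2, the sensor of muramyl dipeptide, had 3 such positions between 4130 and 4201 bp upstream, each at -0.460, and no region.

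The inflammasome genes had few rows. Nlrp3 and Nlrc4, which encode sensors, and Pycard, which encodes the adaptor ASC, had no listed position. Their tested positions were estimated at 1297, 1386 and 598. Aim2, the sensor of cytosolic DNA, had 19 listed positions, 18 of them higher in the first group, and 4 intronic ones between 0.283 and 0.363 passed an FDR of 0.05 in the authors' deposited table. Casp1, the protease of the complex, had 1 listed position, at -0.239 and not at FDR under 0.05. No region was listed at any of the 5 genes.

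At the NF-κB genes 92 of 107 listed positions were lower in the first group, all of them at Nfkbia, Nfkb1 and Rel. The listed positions of these genes formed 1, 7 and 4 clusters, in that order. Positions within a cluster are not separate measurements, so the count gives no direction by locus. Nfkbia encodes IκBα, which holds NF-κB in the cytosol and is itself a target gene of NF-κB. It had the region with the highest absolute area score of the 36 genes. It lay 1877 bp beyond the gene at chr12:55487171-55487533, with 26 cytosines, a difference of -0.361 and an area score of -98.1 in the authors' deposited table. All 39 listed positions at Nfkbia were lower, from -0.398 to -0.28, and 7 passed an FDR of 0.05, the smallest being 0.00413. They formed 1 cluster, defined by gaps of at most 500 bp.

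Nfkb1, which encodes p105 and its product p50, had an intronic region at chr3:135637755-135637879 with 9 cytosines and a difference of -0.432 in the authors' deposited table. Of its 50 listed positions 41 were lower and 9 higher, and the 4 at FDR under 0.05 were all lower, from -0.441 to -0.339. Rel, the gene of c-Rel, was divided by place. Its 6 intronic positions were higher, 3 of them at FDR under 0.05 with differences of 0.424 and 0.513. The 12 positions upstream of Rel were lower, from -0.352 to -0.270, and none passed. Nfkb2, Rela and Relb had no listed position.

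In all, 11 of the 36 genes had no listed position: Tlr1, Tlr6, Cd14, Ticam1, Irak1, Nlrp3, Nlrc4, Pycard, Nfkb2, Rela and Relb. Their estimated number of tested positions ran from 463 to 1643, with a median of 1008, against a median of 875 for the genes with listed positions. A position without a row has no value here, so these genes cannot be called unchanged. Over the 36 windows, 0.981% of tested positions were listed, against 0.537% over all protein-coding genes, and 0.845% without Tlr8. Those at FDR under 0.05 made up 0.142% against 0.105%, and 0.132% without Tlr8. The listed share was 1.12% on the X chromosome, which carries Tlr7, Tlr8, Tlr13 and Irak1, and 0.613% on autosomes. The labels give no sex, and the part of the X chromosome in these values was not tested.

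**Figure D4:**
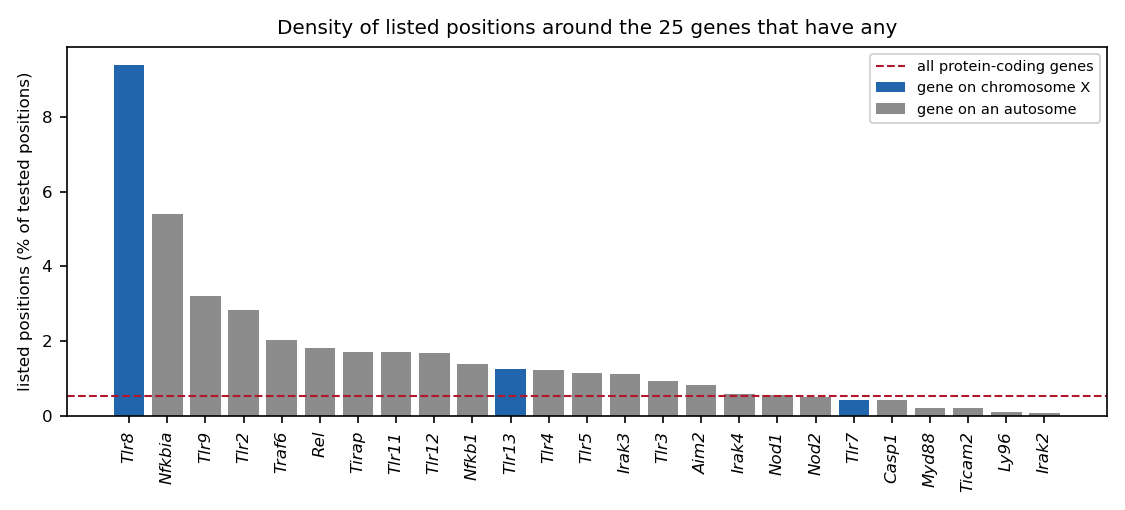
Bars give listed positions as a percentage of the tested positions within 10000 bp, for the 25 genes that have any, in descending order, with genes on the X chromosome in blue. The dashed line is the share over all protein-coding genes, 0.537%. Tlr8 stands at 9.39% and Nfkbia at 5.39%, and 18 genes are above the line.

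Sequence motifs were searched on both strands of the 300 bp centred on each region. The first was GGAA and GAAA with any 2 bases between them, as PU.1 and IRF factors bind together. It was present in 0 of the 11 regions at these genes, and in 2.38% of all higher and 21.3% of all lower regions. The second was GAAA and GAAA with any 2 bases between them, as IRF factors bind alone. It was found in 1 of the 11, the Tirap region, and in 4.37% of all higher and 6.33% of all lower regions. The κB site of NF-κB was found in 0 of the 11, and in 4.59% and 5.06% of all higher and lower regions. The absence of a match says only that these letters are not in the window.

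Other genes of the pathway were read from 6 lists with 105 genes. Of these, 13 (12.4%) had a region and 34 (32.4%) had a position at FDR under 0.05, beside 9.19% and 30.8% of all protein-coding genes. Regions were higher at 4 and lower at 9 of the 105, beside 5.17% and 4.69% of all protein-coding genes. Positions at FDR under 0.05 were higher at 16 and lower at 24 of the 105, beside 20.5% and 16.4% of all genes. These counts were not tested. The region with the largest area score belonged to Ly86, which encodes MD-1, the partner of the receptor RP105, and had a difference of -0.625 over 120 cytosines in the authors' deposited table. Cd36, a scavenger receptor that works with Tlr2, was the other of the 14 chaperones, co-receptors and adaptors with a region.

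Downstream of the receptors, 4 of 26 kinases and ubiquitin enzymes had regions, all lower in the first group: Ikbkb, Map3k7, Traf5 and Ripk2. Where a gene had more than 1 region, the value given is that of the larger absolute area score. Ikbkb, which encodes the IκB kinase IKKβ, had a difference of -0.522 in the authors' deposited table, and Map3k7, which encodes the TAK1 kinase that activates it, had -0.457. Among 15 other inhibitors of NF-κB, Nfkbiz (difference 0.442) and Tnip3 had a higher region. Of 22 other inflammasome genes, Nek7, Il1a and Naip2 had lower regions and Naip6 had higher ones. Nek7, a partner of NLRP3, had -0.439, and Naip6 had 0.353, in regions of uncertain assignment for the Naip genes because these are near-identical copies. Of 11 genes of cytosolic nucleic acid sensing, Irf5 alone had regions. It encodes an interferon regulatory transcription factor, not a sensor, and its 2 regions were lower in the first group. Of 17 inflammatory target genes 0 had a region. The counts of these short lists stand beside 9.19% of all protein-coding genes with a region and were not tested.

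The label of the sorted cells could not be checked by expression, and methylation rows exist only for positions and regions listed in the comparison of the groups. Regions were listed at 3 of 10 microglia markers, 2 of 6 markers of border macrophages, 1 of 7 of monocytes and neutrophils, 1 of 6 of lymphocytes, 1 of 5 of neurons, 2 of 5 of astrocytes, 0 of 5 of oligodendrocytes and 3 of 4 of endothelial cells, beside 9.19% of all protein-coding genes. By direction, endothelial markers had 3 genes with a lower and 0 with a higher region, border macrophage markers 1 and 2, and microglia markers 2 and 2, a gene with both being counted in each. Astrocyte markers had 2 with a lower and 1 with a higher region. The single genes of the other lists were lower for monocytes and neutrophils and higher for lymphocytes and for neurons. In bulk samples a change in the cells that make up a sample and a change within the cells cannot be told apart, and the part of cell composition in the differences above was not tested.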

How the data were processed

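Whole-genome bisulfite libraries came from WT and IRF8KO microglia, 2 samples each, made per the labels from 40000 cells and 50 ng of DNA with 8 cycles of PCR. Trim Galore and Bismark and the mm10 genome are named in the submitters' processing notes; of the statistical test, no source used here names the tool or options. The authors' deposited position table gives a difference, its SE, a p-value and FDR (a q-value) and a posterior. The authors' deposited region table gives a difference and an area score, and both tables give a test statistic or score but no counts or depth. Per-sample columns left unused were 0.

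Rows were assigned to GENCODE M21 genes on GRCm38 within 10000 bp, CpGs were read from the RefSeq sequence of that build, and tested positions were counted from the row numbers kept in the table, interpolating between listed rows. Of listed positions, 78.0% lay on a reference CpG. Python 3.11.15, pandas 2.3.3, numpy 2.4.6, pysam 0.24.0, scipy 1.17.1 and matplotlib 3.10.9 were used, and the overlap counting was checked on made-up data. No test was added. Every gene of the 36 with a region or a position at FDR under 0.05 is named, the rest by counts, and of the other 6 pathway lists each gene with a region, with values for the 6 largest area scores. Marker genes are given as counts. The genes and lists were chosen with earlier results of these data known. The labels do not say whether the samples of a group are separate animals, so the authors' p-values may measure technical spread. Alternatives for the window, the thresholds, the gene assignment and the positions used were tried. An IRF or κB motif had 10 bases.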

Additional observations from a re-analysis of the deposited data

How the results depend on the processing

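Of 37 alternatives to the 4 main values, 30 stayed close and 7 moved, and none reversed. The 18 genes with a position at FDR under 0.05 became 9 when only rows inside the gene counted, 9 with a window of 2000 bp, and 6 with an FDR under 0.001 (16.7%, beside 14.3% of all genes). The 9 genes with a region became 5 when regions needed at least 10 cytosines (13.9%, beside 5.14%) and 4 when they needed an absolute difference of at least 0.4 (11.1%, beside 5.62%). The lower regions, 3 of 11 in the main setting, became 1 of 5 and 1 of 4 under these 2 settings, in that order. Fewer rows count under each of these by construction. With the smaller windows the background fell as well: inside the gene 25% of the 36 genes and 20.1% of all genes had a position at FDR under 0.05, and with 2000 bp 25% and 22.2%. For regions inside the gene the shares were 16.7% and 6.72%. Where a position counted only if no other gene was nearer, 13 genes (36.1%) had one at FDR under 0.05, beside 26.6% of all genes. The higher share of positions at FDR under 0.05 was 67.2%, beside 58.1% of all such positions. It became 54.5% of 22 with only the positions whose dispersion was their own in each group, which is below that 58.1%. This setting is counted among the 30 that stayed close, and its own background was not computed. Over all listed positions at the 36 genes the higher share was 60.6%, beside 61.9% of all listed positions in the deposited list. That setting was chosen after seeing the data, as was leaving out Tlr8. No paired analysis was possible because neither table gives values by sample, and for the same reason no replicate block, no leave-one-out setting and no stricter coverage minimum were run. Depth is unknown, so a gene with no listed position may hold differences that were not detectable.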

Other observations

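Among adjacent listed positions at the 36 genes, the larger SE in the authors' deposited table was a median of 1.09 and at most 2.42 times the smaller of the pair. In 20 of these pairs exactly 1 position passed an FDR of 0.05, and in 8 both did. The 20 pairs include the CpG 8375 bp upstream of Tlr13, where the strands shared a difference of 0.449 and had FDR values of 0.809 and 0.00453. At Tlr4 the pair with the largest ratio of SE passed on both strands.

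For 5 genes, Irak2, Irak4, Myd88, Ticam2 and Tirap, every position at FDR under 0.05 lay nearer another protein-coding gene. At 9 genes such positions lay inside the gene itself. Of the 10 genes with such positions and no region, Tlr3, Tlr4 and Rel had the largest absolute differences at positions with FDR under 0.05, at -0.532, 0.622 and 0.513. A listed position of Tlr13 at 0.524 did not pass this FDR.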
